A study of Sus scrofa with 20 samples.

Results

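The genes described here encode the membrane proteins that carry ions in pig heart: potassium, calcium, chloride and TRP channels, the sodium and calcium pumps, and the connexins of gap junctions. They were taken from the gene table of the array by their symbols, leaving out probe sets with several symbols. Those beginning with KCN, CACN, CLCN, ATP1A, ATP1B, ATP2A or ATP2B were kept, with the numbered SCN, HCN, TRPC, TRPM, TRPV, GJA, GJB and GJC genes. Each gene was read from whichever of its probe sets had the highest mean signal. The rule found 45 genes among 6765 named genes, carried by 73 of 23999 probe sets. By family they were 7 potassium channel accessory subunits, 6 voltage-gated, 5 inward rectifier and 4 calcium-activated potassium channel genes, 5 calcium channel subunits, 4 calcium pumps, 3 sodium pump beta genes, 5 connexins, 3 chloride channels or exchangers and 3 TRP genes. The symbol of TRPC4AP matched the TRP pattern, although it encodes a protein that associates with a TRP channel and is no channel itself. The 45 held no pore-forming SCN, HCN, CACNA1 or KCND gene and no ATP1A catalytic pump subunit, so these were not analysed here.

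The heartbeat depends on an ordered sequence of currents. Sodium and calcium entry start and sustain the action potential of a cardiomyocyte, several potassium currents end it, and inward rectifier channels hold the membrane at rest. Calcium that entered or was released is returned to the sarcoplasmic reticulum by SERCA pumps and removed across the plasma membrane, while the sodium pump keeps the ion gradients on which the currents rest. Connexin channels pass the impulse from cell to cell, and loss of repolarizing current and of connexins is a known feature of remodelled and failing myocardium.

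The 20 Affymetrix porcine arrays each held heart RNA of a female pig, with 5 pigs in each of 4 groups. Control pigs had a sham operation. In SWOP a coronary artery was closed for 10 min in 2 episodes, each followed by 10 min of reperfusion, and tissue was taken after 24 h of reperfusion. RCO applied that same stimulus 6 times at 12 h intervals, and RCS applied 90 min of low-flow ischemia by a coronary stenosis 6 times at 12 h intervals. No genetic change or drug distinguished the groups. The labels used here name the tissue only as heart, and state neither the age of the pigs nor the time between the last RCO or RCS episode and sampling. The deposited values are log2 signals, so that a difference of 1 is a doubling. Differences below are group means subtracted on that scale, with a standard error (SE) and a limma p-value adjusted over all 23999 probe sets. A gene is said to have risen or fallen where that adjusted p was below 0.05.

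The tissue label was checked against 8 cardiomyocyte markers, all of which lay among the brightest genes of the control arrays. Their mean fell below every control array in RCO, by 0.21, and in RCS, by 0.40 (two-sided exact permutation tests, each p = 0.00794, the smallest that 5 against 5 arrays allow), and differed by -0.03 in SWOP (exact permutation p = 0.143). In RCS 6 of these 8 markers were called lower, and their mean lay between 0.67 and 0.24 below the control mean on the 5 arrays. Macrophage markers were higher in RCS by a mean of 1.43, fibroblast markers by 1.22 and smooth muscle markers by 1.08 (exact permutation p = 0.00794 each). Of these, 5 of 7, 3 of 5 and 4 of 6 were called higher. MRC1 averaged 7.98 in control and 7.93 in RCS, COL3A1 7.61 and 7.54, and DCN 12.46 and 12.37. The mean of 3 atrial and conduction markers was 1.88 higher in RCS and that of the adipocyte markers differed by -0.83 (exact permutation p = 0.00794 each). Of the 3, NPPA went from a control mean of 10.02 to 13.43 and SLN from 6.39 to 8.91, while MYL4 averaged 9.53 and 9.23. In RCO the mean of the 7 macrophage markers was 0.97 higher and that of the 5 skeletal muscle markers 0.53 higher (exact permutation p = 0.00794 each). Of these, 4 and 2 were called higher. The median of the skeletal muscle markers differed by 0.06. TNNT1 averaged 10.23 in control and 11.53 in RCO and MYL1 7.52 and 9.54, while TNNI1 averaged 8.25 and 7.48. RCO replicates 2 and 3 had the highest macrophage and fibroblast marker levels of their group. The excess of 3′ over 5′ signal on the actin control probe sets, which follows RNA integrity and labelling, was 1.55 ± 0.29 (SD, n = 5) in control and 0.65 ± 0.09 in RCS (exact permutation p = 0.00794). On the GAPDH control probe sets that excess averaged -0.10 in control and 0.05 in RCS (exact permutation p = 0.0238), and the mean spike-in signal was 10.62 in control and 10.32 in RCS (exact permutation p = 0.00794). The interquartile range of all log2 signals averaged 3.09 on control arrays, 3.28 on SWOP arrays, 3.19 for RCO and 3.36 for RCS, with no overlap between control and SWOP or RCS. No 2 arrays shared more than 2.67% of their values. In bulk tissue, fewer cells of a type cannot be told apart from less RNA per cell.

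In RCS most of these genes were lower than in control. Of the 45, 28 fell and 3 rose, with a median difference of -0.37 against 0.0 over all genes. The background was large: 25.7% of all genes were called lower and 28.8% higher in this comparison, while 62.2% of the channel, pump and connexin genes were called lower. On 21 of the 45, every RCS array lay below every control array, as did 16.9% of all genes. The 3 that rose were ATP2B1, ATP1B3 and CLCN5, and the largest fall was that of KCNIP2.

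**Figure D1:**
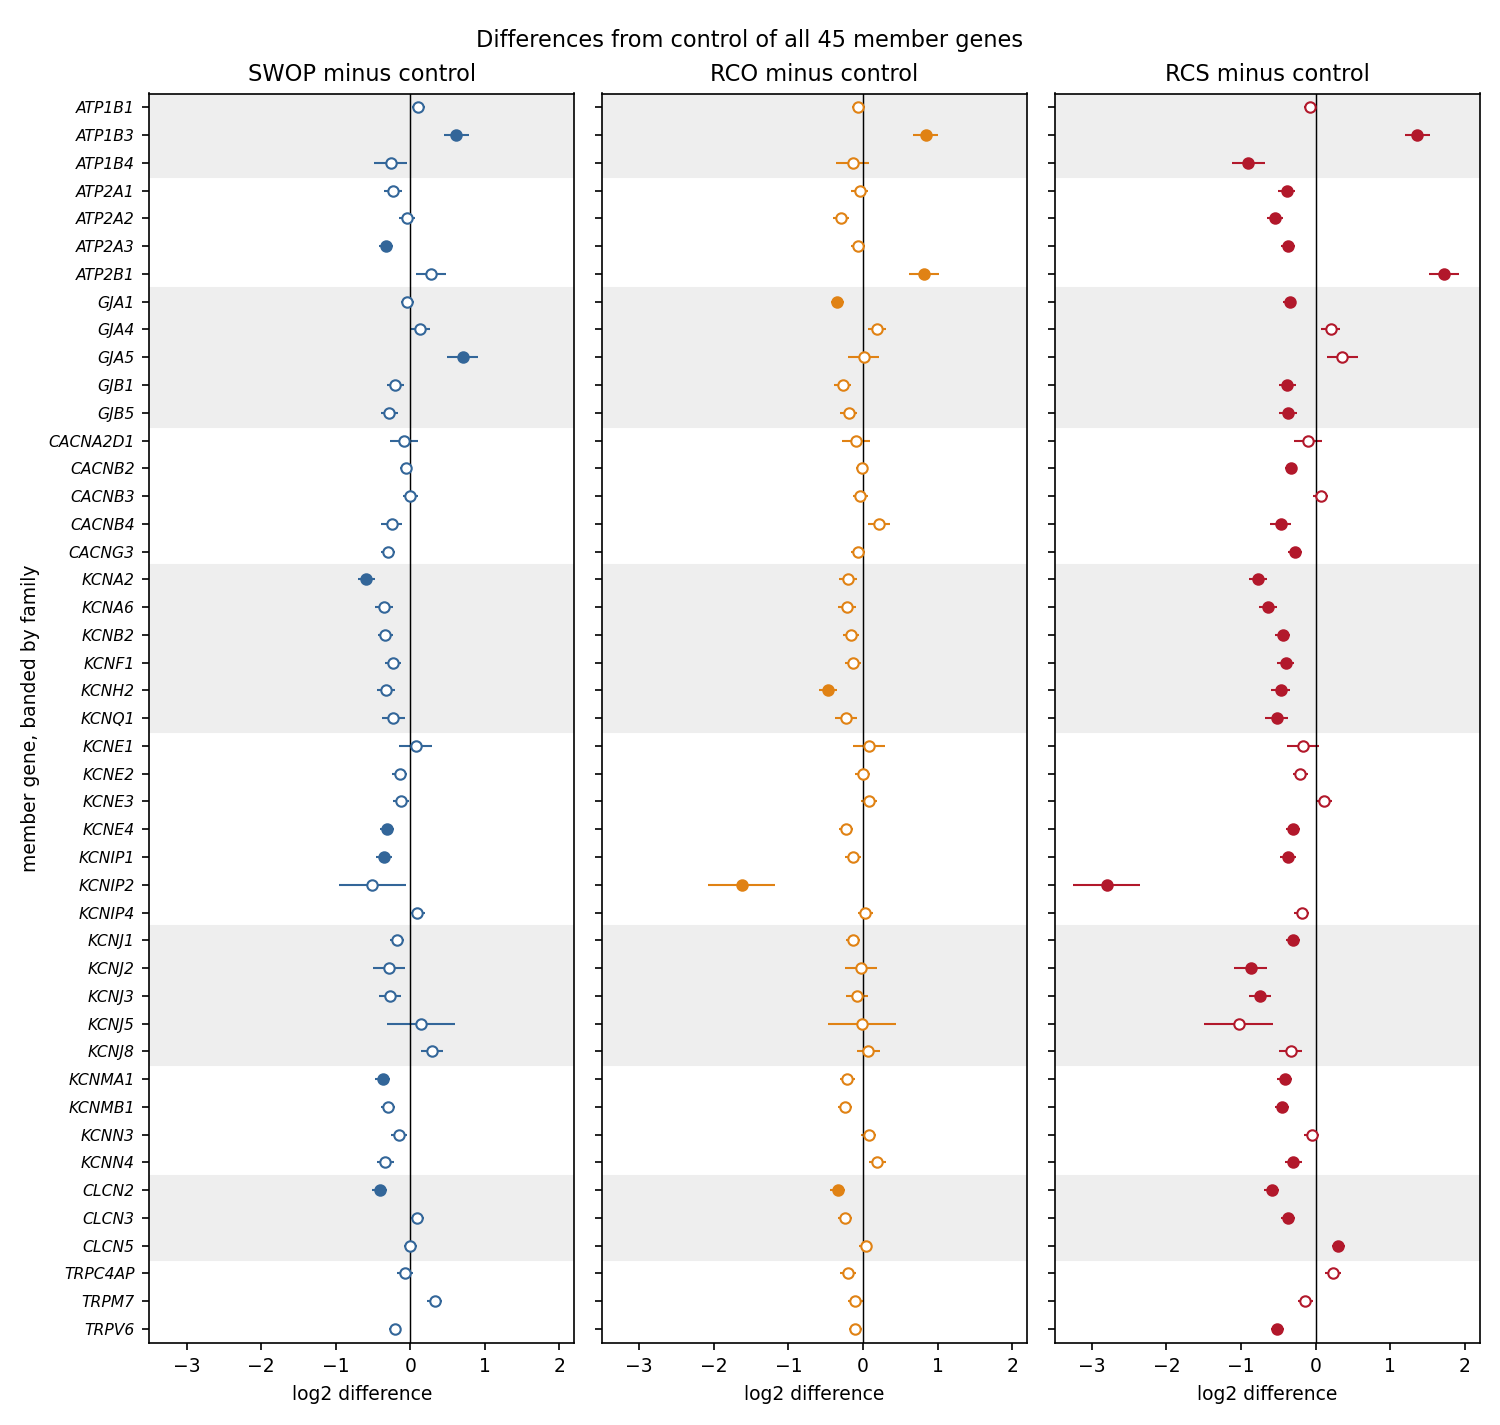
Log2 difference from control of each of the 45 genes in SWOP, RCO and RCS, with SE as horizontal bars and filled circles where the limma adjusted p was below 0.05; shading separates the families. In RCS 28 genes are filled on the left of 0 and 3 on the right, against 6 and 2 in SWOP and 4 and 2 in RCO.

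Dim probe sets made up much of this set, and dim probe sets fell more often in RCS throughout the array. When all genes were divided by mean signal into 3 classes of 2255, 37.2% of the dimmest class were called lower, against 20 of 26 channel, pump and connexin genes there (76.9%). In the middle class the shares were 19.9% of genes and 5 of 10 members (50.0%). In the brightest class they were 20.1% and 3 of 9 (33.3%). The wider signal range of the RCS arrays moved with these falls. After quantile normalization, which gives every array the same range, 27 of the 45 were called lower and 3 higher. Over all 6765 genes 1806 were then called lower and 1634 higher, and 1740 and 1949 as deposited. No test of the set as a whole was made. The actin 3′ excess and the marker levels given above moved with RCS too, and their part in these differences was not tested.

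**Figure D2:**
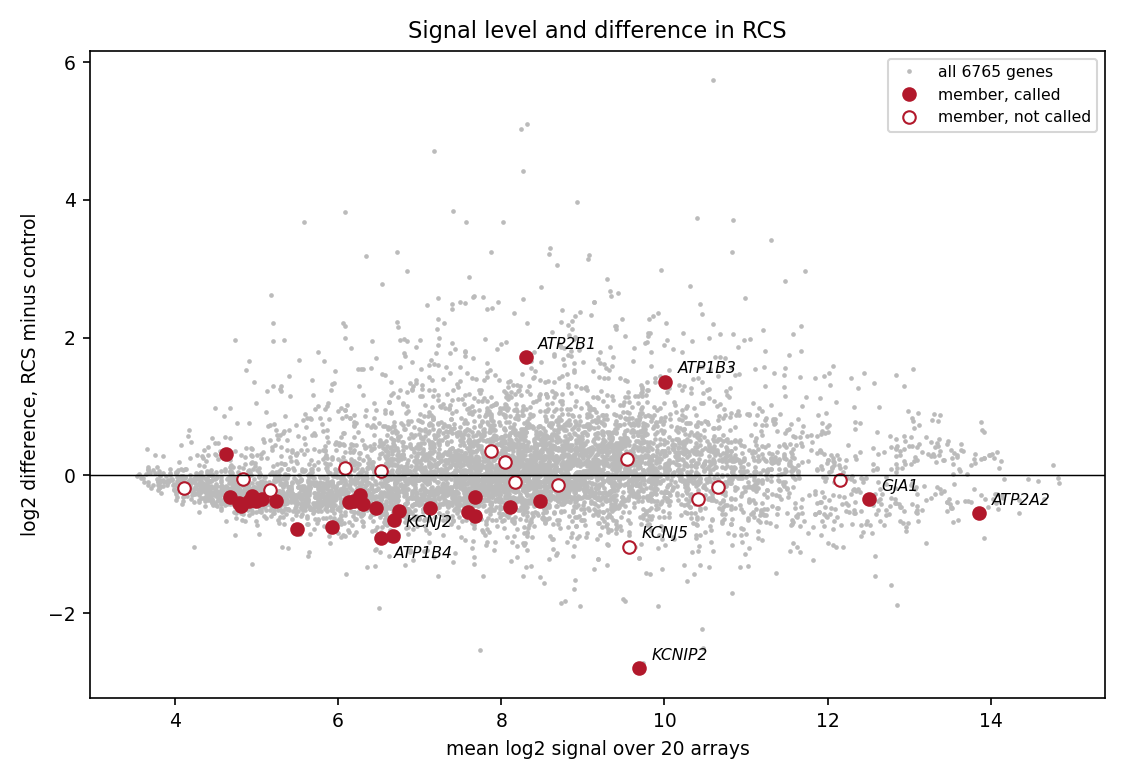
Mean log2 signal over 20 arrays (horizontal) against the RCS minus control log2 difference (vertical) of all 6765 genes (grey) and of the 45 channel, pump and connexin genes (red, filled where called). Most of the 45 sit in the dim left part just below 0; KCNIP2 at -2.80, ATP2B1 at 1.72 and ATP1B3 at 1.36 are labelled.

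In RCO, 4 of the 45 genes fell, against 4.26% of all genes, and 2 rose, against 11.3% of all genes. The genes that fell were KCNIP2, KCNH2, GJA1 and CLCN2, and those that rose were ATP1B3 and ATP2B1. The median difference was -0.09, and 0.01 over all genes. RCO, SWOP and RCS were each compared with the same 5 control arrays, so their differences are not independent. The RCO count was 2 without RCO replicate 3, 3 without control replicate 4 or 5, and 11 without RCO replicate 5. Over all genes the higher and lower calls were 767 and 288 as deposited and 429 and 147 without RCO replicate 3. They were 585 and 189 without control replicate 4, 660 and 199 without control replicate 5, and 1073 and 567 without RCO replicate 5. Without RCO replicates 2 and 3 together, ATP1B3 alone was called, and with RCO and control arrays fitted alone, ATP1B3 and KCNIP2 were.

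In SWOP, 2 of the 45 rose, against 4.66% of all genes, and 6 fell, against 3.5%. ATP1B3 and GJA5 rose; KCNA2, CLCN2, KCNMA1, ATP2A3, KCNE4 and KCNIP1 fell. Of the 6 that fell, 4 lay in the dimmest signal class, where 6.96% of all genes fell. The median difference was -0.20, against 0.04 over all genes. KCNA2 was the member whose call held when any single array was left out. The count was 1 without control replicate 2 or 4 or SWOP replicate 4, 2 without control replicate 5 or SWOP replicate 2, 3 or 5, and 5 without control replicate 1. Over all genes the higher and lower calls were 124 and 71 without control replicate 2 and 100 and 58 without control replicate 4. They were 99 and 66 without SWOP replicate 4 and 276 and 207 without control replicate 1. With arrays centred on their medians 3 members were called higher and 2 lower, and with quantile normalization 0 and 3; over all genes the higher and lower calls were 315 and 237 as deposited, 380 and 156 with centring, and 122 and 164 with quantile normalization.

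KCNIP2, which encodes the accessory subunit that the transient outward potassium channel of cardiomyocytes needs at the cell surface, had the largest change of all 45 genes. Its log2 signal on the control arrays was 10.94, 10.19, 11.25, 11.11 and 11.15, and on the SWOP arrays 10.57, 10.93, 10.55, 10.21 and 9.82. On the RCO arrays it was 9.64, 8.55, 8.80, 9.62 and 9.91, and on the RCS arrays 9.88, 8.41, 6.15, 8.19 and 8.00. All RCO and RCS arrays lay below the lowest control array, and the 5 RCS arrays were far more scattered than those of any other group, with replicate 3 lowest and replicate 1 at the level of the highest RCO array. The gene fell by 2.80 on the log2 scale in RCS, which is 6.97-fold (SE 0.45, adjusted p = 7.55e-05), and by 1.62, or 3.08-fold, in RCO (SE 0.45, adjusted p = 0.0256). In SWOP the difference was -0.51, which did not pass. The RCS call held with any array left out, with differences from -3.24 to -2.31. The RCO call was lost without control replicate 3, 4 or 5 or RCO replicate 2 or 3 (adjusted p from 0.0515 to 0.0725).

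The other 6 accessory subunit genes moved little. KCNE4, which encodes a modulatory subunit of several potassium channels, fell in RCS by 0.31 (adjusted p = 0.0113) and in SWOP by 0.32 (adjusted p = 0.0440). KCNIP1, a relative of KCNIP2, fell in RCS by 0.37 (adjusted p = 0.00934) and in SWOP by 0.36 (adjusted p = 0.0498). Both SWOP calls were lost without control replicate 1, 2, 4 or 5 or SWOP replicate 2, 3, 4 or 5, with adjusted p between 0.0543 and 0.136. KCNE1, whose product joins the KCNQ1 pore to form the slow delayed rectifier, differed from control by -0.17 in RCS with a wide spread (SE 0.22, adjusted p = 0.525). KCNE2, KCNE3 and KCNIP4 differed by -0.21, 0.11 and -0.19 and did not pass either. A second probe set of KCNE3 rose by 0.60 in RCS (adjusted p = 2.65e-05).

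**Figure D3:**
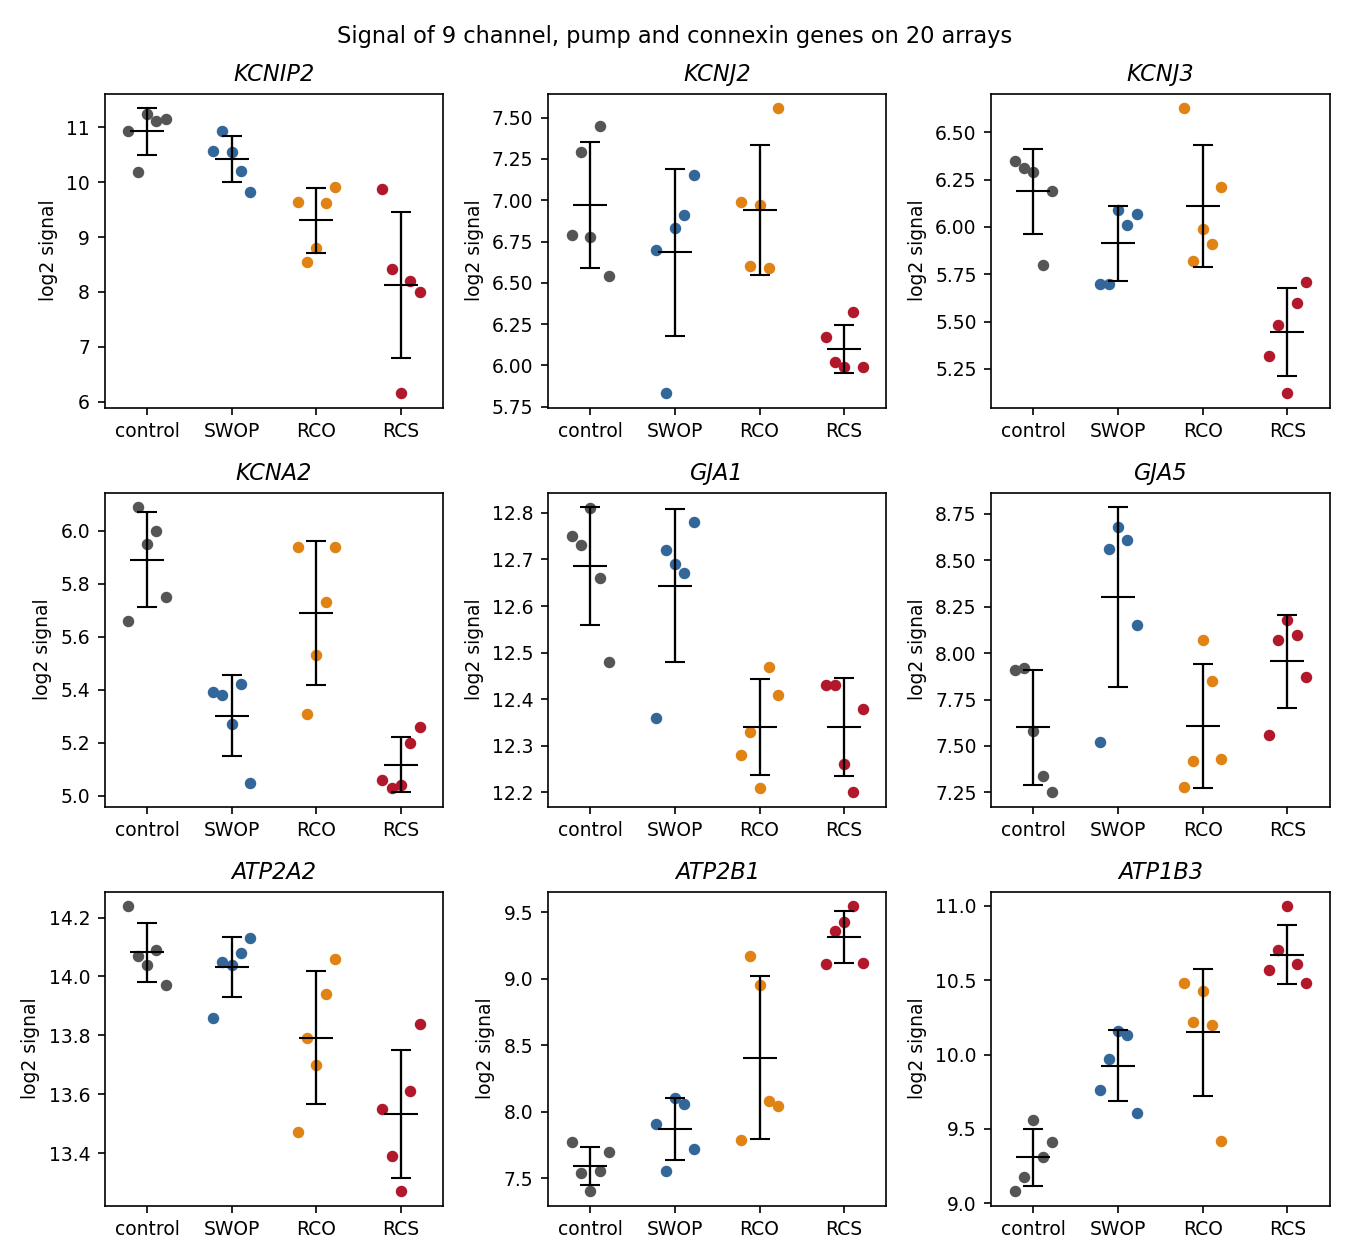
Log2 signal of 9 genes on all 20 arrays by group; points are arrays, the long horizontal line is the group mean and the error bars are 1 SD (n = 5), and each panel has its own axis, which does not start at 0. KCNIP2 descends from a control mean of 10.93 to 8.13 in RCS, ATP2B1 ascends from 7.59 to 9.31 and ATP1B3 from 9.31 to 10.67.

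All 6 voltage-gated potassium channel genes fell in RCS, by 0.40 to 0.77. In that comparison 25.7% of all genes and 37.2% of those in the dimmest signal class were called lower. The greatest of these falls was that of KCNA2, the pore of a delayed rectifier. Its control signals were 5.66, 6.09, 5.95, 6.00 and 5.75, its SWOP signals 5.39, 5.38, 5.27, 5.42 and 5.05, its RCO signals 5.94, 5.31, 5.53, 5.73 and 5.94, and its RCS signals 5.06, 5.03, 5.04, 5.20 and 5.26. The SWOP and RCS arrays all lay below the control arrays, whereas the RCO arrays spread from the SWOP range to the control range. KCNA2 fell by 0.77 in RCS (SE 0.12, adjusted p = 4.19e-05) and by 0.59 in SWOP (adjusted p = 0.0110), and differed by -0.20 in RCO without passing. This probe set was dim, and a second KCNA2 probe set differed by -0.18 in RCS (adjusted p = 0.171). With the mean of both probe sets, the SWOP difference was -0.30 (adjusted p = 0.0851).

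KCNH2 and KCNQ1 encode the pores of the rapid and slow delayed rectifiers that end the ventricular action potential. KCNH2 signals were 7.11, 7.56, 7.24, 7.63 and 7.67 in control, 7.08, 6.94, 7.29, 7.18 and 7.10 in SWOP, 6.86, 6.81, 6.88, 6.88 and 7.44 in RCO, and 6.92, 7.08, 6.78, 7.0 and 7.08 in RCS. All RCS arrays were below control, and 4 of the 5 RCO arrays were, with RCO replicate 5 inside the control range. KCNH2 fell by 0.47 in both RCS (SE 0.12, adjusted p = 0.00457) and RCO (SE 0.12, adjusted p = 0.0207). The RCO call was lost without control replicate 2, 4 or 5 or RCO replicate 3 (adjusted p from 0.0544 to 0.0577) and with the mean of its probe sets. KCNQ1 fell by 0.52 in RCS (SE 0.15, adjusted p = 0.00779), from 7.84 ± 0.23 in control to 7.31 ± 0.22 (SD, n = 5), with overlapping arrays, and differed by -0.23 in RCO.

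KCNA6, a further delayed rectifier gene, fell by 0.64 in RCS (adjusted p = 0.00028), from 6.98 ± 0.19 to 6.34 ± 0.18. KCNB2 fell by 0.44 (adjusted p = 0.00223) and KCNF1, an electrically silent modulatory subunit, by 0.40 (adjusted p = 0.00593); the signals of both were near the bottom of the scale, with control means of 5.04 and 4.97.

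Inward rectifier genes had the lowest family median in RCS, -0.74, and 3 of 5 fell, against 25.7% of all genes. With so few genes per family, nothing is read from this ranking. KCNJ2 encodes the main channel of the resting potassium current of ventricular cardiomyocytes. Its signals were 6.79, 7.29, 6.78, 7.45 and 6.54 in control, 6.70, 5.83, 6.83, 6.91 and 7.15 in SWOP, 6.99, 6.60, 6.97, 6.59 and 7.56 in RCO, and 6.17, 6.02, 5.99, 6.32 and 5.99 in RCS. The RCS arrays were tightly grouped below all control and RCO arrays, and SWOP replicate 2 alone of the other groups reached as low. KCNJ2 fell 1.83-fold in RCS, by 0.87 (SE 0.22, adjusted p = 0.00338), and differed by -0.29 in SWOP and -0.03 in RCO.

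KCNJ3 and KCNJ5 encode the channel subunits opened by acetylcholine through G proteins, best known from atrium and nodal tissue. KCNJ3 signals were 6.35, 6.31, 6.29, 5.80 and 6.19 in control, 6.63, 5.82, 5.99, 5.91 and 6.21 on the RCO arrays, and 5.32, 5.48, 5.12, 5.60 and 5.71 in RCS. Every RCS array was below every control and RCO array, and the gene fell by 0.74 (SE 0.15, adjusted p = 0.000563). KCNJ5 varied widely within each group: its RCS signals were 9.27, 7.84, 7.53, 9.17 and 9.99 and its control signals 10.61, 9.44, 9.82, 10.21 and 8.89. The groups overlapped, and the RCS difference of -1.03 (SE 0.46) missed the threshold (adjusted p = 0.0687). Its other, dimmer probe set fell by 0.54 (adjusted p = 0.00236). The 3 measured atrial and conduction markers averaged 1.88 higher in RCS, though 1 of them, MYL4, averaged lower than in control. Their part in these differences was not tested.

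KCNJ8, the inward rectifier subunit of metabolically gated potassium channels in vessels and heart, differed from control by -0.34 in RCS (adjusted p = 0.0743) and 0.29 in SWOP, neither past the threshold. Of its other probe sets, the first fell by 0.42 in RCS (adjusted p = 0.0319) and the other differed by -0.22. KCNJ1, known from kidney, was dim and fell by 0.31 in RCS (adjusted p = 0.0145); with quantile normalization its difference was -0.18 (adjusted p = 0.111).

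Of the calcium-activated potassium channel genes 3 of 4 fell in RCS, against 25.7% of all genes. KCNMB1, the accessory subunit of the large-conductance channel of smooth muscle, had control signals of 8.26, 8.55, 8.18, 8.36 and 8.43 and RCS signals of 7.70, 7.89, 7.84, 7.98 and 8.11. The groups did not overlap, and it fell by 0.45 (SE 0.09, adjusted p = 0.000767). The pore gene of that channel, KCNMA1, fell by 0.42 in RCS (adjusted p = 0.00274) and by 0.37 in SWOP (adjusted p = 0.0357). The SWOP call was lost without control replicate 1, 2, 4 or 5 or SWOP replicate 2, 3, 4 or 5 (adjusted p from 0.0503 to 0.0942). It was also lost with quantile normalization, with median centring and with its probe sets averaged. The other, dimmer KCNMA1 probe set differed by -0.17 in RCS (adjusted p = 0.143) and by 0.02 in SWOP (adjusted p = 0.909). KCNMB1 differed by -0.30 in SWOP (adjusted p = 0.0585) and by -0.25 in RCO, and KCNMA1 by -0.21 in RCO, without passing. The mean of the 6 smooth muscle and pericyte markers was higher than in control in all 3 protocols. The differences were 0.38 in SWOP, 0.54 in RCO (exact permutation p = 0.0238 each) and 1.08 in RCS. The medians were 0.12, 0.44 and 1.1, and 2, 1 and 4 of the 6 were called higher. In SWOP CNN1 averaged 10.11 against 8.62 in control and DES 13.49 against 12.89. TAGLN averaged 9.82 against 9.88 and RGS5 11.62 against 11.61. The part of these markers in the channel differences was not tested. KCNN4, the intermediate-conductance channel of blood and immune cells, was dim and fell in RCS by 0.30 (adjusted p = 0.0342). That call was lost without control replicate 2 or 5 or RCS replicate 3 (adjusted p from 0.0560 to 0.117) and with quantile normalization. KCNN3 differed by -0.05.

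The 3 genes named for the sodium pump beta subunit went different ways. The beta subunit brings the catalytic subunit to the membrane, and ATP1B1 is its main form in heart. ATP1B1 differed from control by 0.10 in SWOP, -0.07 in RCO and -0.07 in RCS, none past the threshold. ATP1B3, a beta isoform found in many tissues, was the member called in most comparisons, 5 of 6. Its control signals were 9.08, 9.18, 9.56, 9.31 and 9.41, its SWOP signals 9.76, 9.97, 10.16, 10.13 and 9.61, its RCO signals 10.48, 10.22, 10.43, 10.20 and 9.42, and its RCS signals 10.57, 10.70, 11.00, 10.61 and 10.48. All SWOP and RCS arrays lay above control, as did all RCO arrays except replicate 5. ATP1B3 rose by 0.62 in SWOP (SE 0.17, adjusted p = 0.0314), by 0.84 in RCO (SE 0.17, adjusted p = 0.00372) and by 1.36, or 2.57-fold, in RCS (SE 0.17, adjusted p = 5.44e-06). The SWOP call was lost without control replicate 1, 2, 4 or 5 or SWOP replicate 2, 3 or 4 (adjusted p from 0.0509 to 0.0817), while the RCO and RCS calls held without any single array.

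The ATP1B3 signal was also taken relative to that of ATP1B1 on the same array. ATP1B1 was called in 0 of the 6 comparisons. The log2 difference between their probe sets was 0.51 higher than in control in SWOP, 0.91 higher in RCO (two-sided exact permutation p = 0.0159 each) and 1.44 higher in RCS (p = 0.00794). These values lie close to the differences of ATP1B3 alone, which was already called in each group, so the tests are not independent of its calls. They do not show how many molecules of each were present. ATP1B4, a muscle-specific relative of the beta subunits, had control signals of 7.08, 7.12, 6.56, 6.59 and 6.91 and RCS signals of 6.23, 5.76, 5.76, 5.99 and 6.01. The groups did not overlap and it fell by 0.90 in RCS (SE 0.22, adjusted p = 0.00253). Its RCO signals ran from 5.74 to 7.64, wider than any other group.

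Among the calcium pumps, ATP2B1 rose and the 3 SERCA genes fell in RCS, where 28.8% of all genes were called higher and 25.7% lower. ATP2B1 encodes a plasma membrane pump that exports calcium from most cell types. Its signals were 7.77, 7.54, 7.40, 7.55 and 7.70 in control, 7.91, 7.55, 8.10, 8.06 and 7.72 in SWOP, 7.79, 9.17, 8.95, 8.08 and 8.04 in RCO, and 9.11, 9.36, 9.43, 9.55 and 9.12 in RCS. All RCO arrays were above control; RCO replicate 2 reached the RCS range, replicate 3 came close to it, and the other 3 stayed well below. ATP2B1 rose 3.30-fold in RCS, by 1.72 (SE 0.20, adjusted p = 4.07e-06), and 1.76-fold in RCO, by 0.81 (SE 0.20, adjusted p = 0.0151). The RCO call was lost without RCO replicate 3 (adjusted p = 0.0526), and without replicates 2 and 3 the difference was 0.38 (adjusted p = 0.110). Those replicates also had the highest macrophage and fibroblast marker levels of RCO. Their actin 3′ excess was the lowest of RCO, 0.78 and 0.79, against 1.12 to 1.69 on its other arrays. The part of other cell types or of RNA integrity and labelling in the rise was not tested. In SWOP the difference was 0.28 and did not pass.

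ATP2A2 encodes the SERCA pump that refills the sarcoplasmic reticulum of cardiomyocytes. Its brightest probe set read 14.24, 14.07, 14.04, 14.09 and 13.97 in control, 13.47, 13.79, 13.70, 13.94 and 14.06 on the RCO arrays, and 13.55, 13.39, 13.27, 13.61 and 13.84 in RCS. The RCS arrays were all below control, and the RCO arrays reached into the control range. This probe set fell by 0.55 in RCS (SE 0.11, adjusted p = 0.000498) and differed by -0.29 in RCO. The other 3 probe sets of ATP2A2 did not move together: they changed by 0.53 (adjusted p = 0.00253), 0.36 (adjusted p = 0.0243) and -0.45 (adjusted p = 0.0271). Averaged over its probe sets, ATP2A2 differed by -0.03 (adjusted p = 0.828), so its direction depended on the probe set. ATP2A1, the SERCA gene of fast skeletal muscle, and ATP2A3, that of endothelial and blood cells, were dim and fell in RCS by 0.39 (adjusted p = 0.0117) and 0.37 (adjusted p = 0.00323). ATP2A3 also fell in SWOP by 0.33 (adjusted p = 0.0386), a call lost without control replicate 2, 3, 4 or 5 or SWOP replicate 2, 3, 4 or 5 (adjusted p from 0.0618 to 0.0963).

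**Figure D4:**
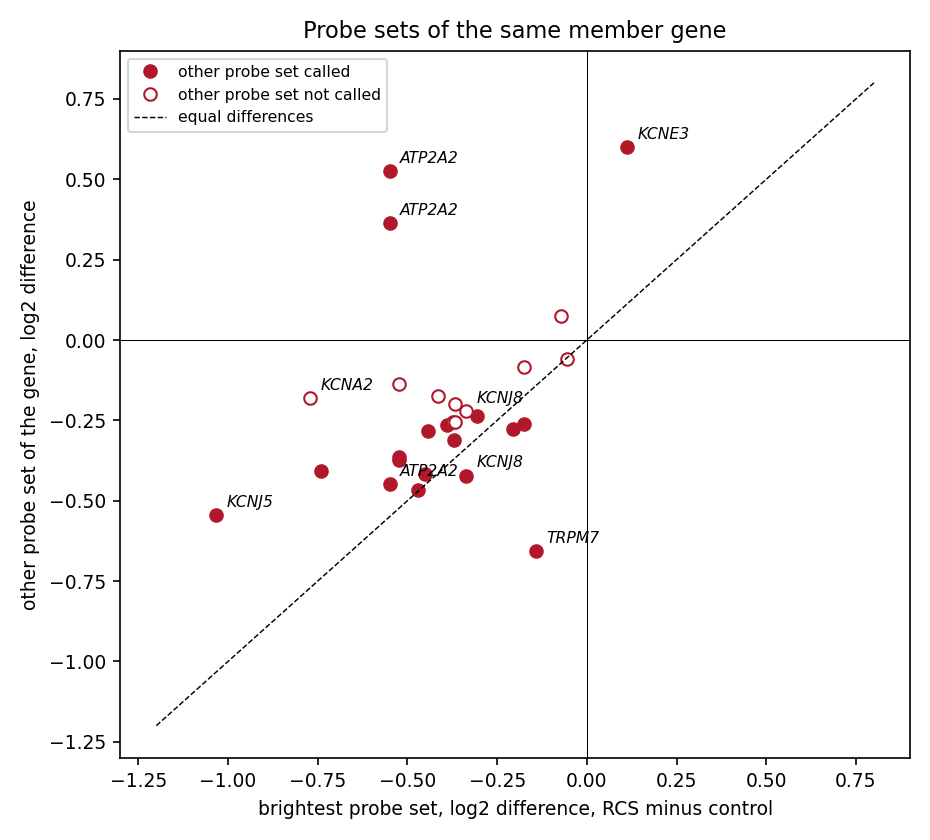
RCS minus control log2 difference of the brightest probe set of a gene (horizontal) and of each other probe set of that gene (vertical), for 28 other probe sets of 21 genes; filled where the other probe set was called, with the dashed line marking equal differences. Of the 28, 25 share the sign of the brightest; the ATP2A2 points at 0.53 and 0.36 lie on the opposite side of 0.

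For the 21 genes with more than 1 probe set, the direction in RCS was mostly shared. Of 28 further probe sets 25 had the sign of the brightest, and 18 were called. Of the 18 that belong to a called gene, 16 had its sign and 10 had its call. Among all 23999 probe sets, 4632 were called higher and 6772 lower in this comparison. The further probe sets are dimmer by the way the brightest was chosen, and dim probe sets fell more often in RCS. A shared lower sign is therefore no separate support for a fall. TRPM7, a magnesium-permeable channel joined to a kinase, differed by -0.14 by its brightest probe set (adjusted p = 0.253) and fell by 0.66 by the other (adjusted p = 0.000494).

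Of the 5 calcium channel subunits 3 fell in RCS, against 25.7% of all genes, with a family median of -0.28. The products of CACNA2D1 and the CACNB genes regulate the pore, setting its number and gating at the membrane. CACNA2D1 differed by -0.10 in RCS (SE 0.19, adjusted p = 0.687) and CACNB3 by 0.07. CACNB2, the main beta subunit in heart, had control signals of 5.17, 5.27, 5.12, 5.29 and 4.99 and RCS signals of 4.73, 4.92, 4.90, 4.77 and 4.84. The groups did not overlap, and it fell by 0.34 (SE 0.08, adjusted p = 0.00225) at a low signal. CACNB4 fell by 0.47 (adjusted p = 0.0111). CACNG3, known from brain, fell by 0.28 (adjusted p = 0.0197), a call lost without RCS replicate 1 or 3 (adjusted p = 0.0533 and 0.0568) and with quantile normalization. In SWOP the 5 genes differed from control by -0.30 to 0.00 and in RCO by -0.09 to 0.21, without passing.

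GJA1, the principal connexin of ventricular muscle, was among the 4 genes that fell in RCO. Its signals were 12.75, 12.73, 12.81, 12.66 and 12.48 in control, 12.36, 12.72, 12.69, 12.67 and 12.78 in SWOP, 12.28, 12.33, 12.21, 12.47 and 12.41 in RCO, and 12.43, 12.43, 12.26, 12.20 and 12.38 in RCS. Every RCO and RCS array lay below every control array, control replicate 5 by the least, and SWOP replicate 1 stood alone at the RCO level. GJA1 fell 1.27-fold in each, by 0.35 (SE 0.09; adjusted p = 0.0150 in RCO and 0.00301 in RCS), and differed by -0.04 in SWOP. Both calls held without any single array; without RCO replicates 2 and 3 the RCO difference was -0.30 (adjusted p = 0.0924).

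The connexins of vessel walls did not follow GJA1. GJA5, which is found in endothelium, atrium and the conduction system, had signals of 7.91, 7.92, 7.58, 7.34 and 7.25 in control and 7.52, 8.56, 8.68, 8.61 and 8.15 in SWOP. Of the SWOP arrays 4 were above all control arrays and replicate 1 was not. GJA5 rose by 0.70 in SWOP (SE 0.21, adjusted p = 0.0443), and differed by 0.01 in RCO and 0.36 in RCS without passing. The SWOP call was lost without control replicate 2, 3, 4 or 5 or SWOP replicate 2, 3, 4 or 5 (adjusted p from 0.0584 to 0.111). The mean of the endothelial markers differed by 0.08 in SWOP (exact permutation p = 0.214). GJA4, the other vascular connexin, differed by 0.20 in RCS (adjusted p = 0.186). GJB1 and GJB5, known from liver and nerve and from skin, were dim and fell in RCS by 0.38 (adjusted p = 0.00925) and 0.37 (adjusted p = 0.0150); the GJB1 call was lost with quantile normalization (adjusted p = 0.0593).

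CLCN2, a chloride channel of the plasma membrane, fell in all 3 protocols. Its signals were 7.89, 8.14, 7.90, 8.10 and 8.04 in control, 7.51, 7.66, 7.74, 7.55 and 7.57 in SWOP, 7.50, 7.49, 7.54, 7.89 and 7.97 in RCO, and 7.27, 7.41, 7.31, 7.48 and 7.64 in RCS. The SWOP and RCS arrays were all below control, and RCO replicates 4 and 5 reached the control range. CLCN2 fell by 0.41 in SWOP (adjusted p = 0.0228), by 0.34 in RCO (adjusted p = 0.0374) and by 0.59 in RCS (SE 0.10, adjusted p = 0.000128). The SWOP call was lost without control replicate 2 or 4 or SWOP replicate 4 or 5 (adjusted p from 0.0545 to 0.0637), and the RCO call without control replicate 2, 4 or 5 or RCO replicate 1, 2 or 3 (adjusted p from 0.0663 to 0.104). CLCN3 and CLCN5 encode chloride-proton exchangers of endosomes. CLCN3 fell by 0.37 in RCS (adjusted p = 0.00292), and CLCN5 rose by 0.31 (adjusted p = 0.00553) at a signal near the bottom of the scale. The further CLCN3 probe sets differed by -0.256 (adjusted p = 0.1865) and -0.198 (adjusted p = 0.09325) in RCS, without passing.

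TRPV6, a calcium-selective channel known from epithelia, fell in RCS by 0.51 (SE 0.09, adjusted p = 0.000106), from 6.96 ± 0.09 in control to 6.45 ± 0.13 (SD, n = 5), with no overlap. TRPC4AP differed by 0.24 (adjusted p = 0.0773).

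The protocols were then compared with each other. RCS and RCO share the number and spacing of episodes but differ in the kind and length of ischemia. Of the 45 genes, 4 were higher in RCS than in RCO, against 11.7% of all genes, and 11 lower, against 9.9%. All 11 lay in the dimmest signal class, which held 26 of the 45 and where 15.2% of all genes were called lower. Those lower in RCS included 2 of the 3 inward rectifiers that fell against control: KCNJ2 at -0.84 (adjusted p = 0.0148) and KCNJ3 at -0.67 (adjusted p = 0.00676). The differences of CACNB4 at -0.68 (adjusted p = 0.00464), KCNA2 at -0.57 (adjusted p = 0.00408), KCNN4 at -0.49 (adjusted p = 0.00766), TRPV6 at -0.41 (adjusted p = 0.00454) and CACNB2 at -0.32 (adjusted p = 0.0123) passed as well. None of these 7 genes had overlapping arrays between RCS and RCO. In total, the RCS arrays lay wholly below the RCO arrays for 8 of the 45 genes and wholly above for 2. Among all 6765 genes they did so for 233 and 238. ATP2B1 was higher in RCS by 0.91 (adjusted p = 0.00684), as was TRPC4AP by 0.43 (adjusted p = 0.0118).

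The other 6 calls between RCS and RCO did not survive each omission of an array. They were ATP1B4 at -0.76, KCNA6 at -0.43, ATP2A1 at -0.34 and ATP2A3 at -0.31, and ATP1B3 at 0.52 and CLCN5 at 0.27. ATP1B3 was lost without RCO replicate 4 or 5 or RCS replicate 2, 3 or 4, ATP1B4 without RCO 5 or RCS 2 or 3, KCNA6 without RCO 5 or RCS 3, and CLCN5 without RCO 1 or 5 or RCS 3 or 5. ATP2A3 was lost without RCO 4 or 5 or RCS 1, 3 or 4, and ATP2A1 without RCO 1, 4 or 5 or any RCS array (adjusted p from 0.0502 to 0.145 over these 6 genes). KCNIP2 differed by -1.18 between RCS and RCO and GJA1 by 0.00, neither past the threshold. The count was 24 without RCO replicate 2, 9 without RCO replicate 5 or RCS replicate 3, and 26 without RCO replicates 2 and 3. Fitted on these 2 groups alone it was 5, all lower. Over all 6765 genes the higher and lower calls moved too. They were 793 and 670 as deposited, 1205 and 1207 without RCO replicate 2, and 421 and 333 without RCO replicate 5. Without RCS replicate 3 they were 346 and 270, without RCO replicates 2 and 3 1458 and 1441, and with these groups alone 149 and 117.

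RCS differed from SWOP in 4 genes that were higher, against 20.3% of all genes, and 11 that were lower, against 17.7%. The log2 difference, RCS minus SWOP, was -2.29 for KCNIP2 (SE 0.45, adjusted p = 0.000769), -0.50 for ATP2A2 by its brightest probe set (adjusted p = 0.00176), -0.46 for CLCN3 (adjusted p = 0.00082), -0.47 for TRPM7 (adjusted p = 0.00167) and -0.63 for KCNJ8 (adjusted p = 0.00392). KCNJ8 signals were 10.46, 10.67, 10.92, 10.72 and 10.69 in SWOP and 10.17, 9.78, 9.88, 10.13 and 10.36 in RCS, with no overlap. CACNB2, TRPV6 and GJA1 differed by -0.28, -0.31 and -0.30. The ATP2A2 call was lost with its probe sets averaged (adjusted p = 0.933), and the GJA1 call with quantile normalization (adjusted p = 0.0531). ATP2B1 was 1.45 higher (adjusted p = 5.02e-05), ATP1B3 0.75 higher (adjusted p = 0.00208) and CLCN5 0.31 higher. The calls of ATP1B4 (-0.64), KCNIP4 (-0.28), KCNJ3 (-0.47) and TRPC4AP (0.30) were lost in turn without some arrays: ATP1B4 without SWOP 1, 2, 4 or 5 or RCS 2, 3 or 4, KCNIP4 without SWOP 1, 2, 3 or 4 or RCS 1 or 3, KCNJ3 without SWOP 3 or 5 or RCS 3, and TRPC4AP without SWOP 1, 2, 4 or 5 or RCS 2, 3, 4 or 5 (adjusted p from 0.0505 to 0.115).

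RCO and SWOP used the same stimulus, repeated in RCO. In RCO 3 of the 45 genes were higher than in SWOP, against 5.54% of all genes, and 4 were lower, against 6.4%. KCNN4 was 0.53 higher (SE 0.11, adjusted p = 0.00884), with signals of 5.32, 5.19, 4.93, 5.16 and 5.59 in RCO and 4.85, 4.79, 4.74, 4.54 and 4.63 in SWOP that did not overlap, and TRPM7 differed by -0.43 (adjusted p = 0.0136). Both calls held without any single array. That of KCNN4 also held under every alternative that included its probe set, which the filter on dim probe sets removed. That of TRPM7 was lost with its probe sets averaged (adjusted p = 0.0641), without RCO replicates 2 and 3 (adjusted p = 0.0744) and with only these groups fitted (adjusted p = 0.0534).

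The other 5 calls between RCO and SWOP were CACNB4 at 0.46, KCNA2 at 0.39, GJA5 at -0.69, CLCN3 at -0.33 and GJA1 at -0.30. CACNB4 was lost without RCO 1, 3 or 5 or SWOP 2, 3, 4 or 5, KCNA2 without RCO 1, 4 or 5 or SWOP 2, 3, 4 or 5, and GJA5 without RCO 1, 2 or 5 or SWOP 2, 3, 4 or 5. CLCN3 was lost without RCO 2 or 3 or SWOP 3, 4 or 5, and GJA1 without RCO 2 or 3 or SWOP 2, 3, 4 or 5 (adjusted p from 0.0501 to 0.116 over these 5 genes). The count was 4 without RCO replicate 2 or 3, 3 without SWOP replicate 2 and 2 without SWOP replicate 3, 4 or 5. Over all genes the higher and lower calls were 375 and 433 as deposited. They were 182 and 262 without RCO replicate 3 and 142 and 184 without SWOP replicate 5.

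Of 54 listed genes known for heart currents, pumps and junctions, 22 were measured; 2 rose and 12 fell in RCS, 2 rose and 3 fell in RCO, and 2 rose and 2 fell in SWOP. The shares of all genes that rose and fell were 28.8% and 25.7% in RCS, 11.3% and 4.26% in RCO, and 4.66% and 3.5% in SWOP. Because the cardiomyocyte markers were lower in RCO and RCS, these 22 were also expressed relative to the mean of those markers on the same array, a comparison chosen after the data had been seen. On that scale the KCNIP2 difference from control was -1.41 in RCO and -2.40 in RCS, with no overlap (two-sided exact permutation p = 0.00794 each). ATP2B1 was 1.03 and 2.13 higher, also without overlap, and ATP1B3 was 1.05 higher in RCO and 1.77 higher in RCS. KCNJ2 differed by 0.18 in RCO and -0.47 in RCS, and KCNJ3 by 0.14 and -0.34. GJA1 differed by -0.13 in RCO and 0.06 in RCS, KCNH2 by -0.26 and -0.07, KCNQ1 by -0.02 and -0.12, and ATP2A2 by -0.08 and -0.15, none of them with separated arrays. Over the 44 such tests the smallest Benjamini-Hochberg adjusted p was 0.0698. It belongs to tests at an exact permutation p of 0.00794, the smallest that 5 against 5 arrays allow. The number of arrays therefore limited it. Probe sets differ in response near saturation, so a subtraction of such bright markers is approximate.

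Genes that act beside these channels and pumps were described from a further list of 40 partners and regulators, of which 28 were measured. In RCS 6 of the 28 rose, against 28.8% of all genes, and 14 fell, against 25.7%. In RCO 3 rose, against 11.3%, and 3 fell, against 4.26%, and in SWOP 2 rose, against 4.66%, and 2 fell, against 3.5%. FKBP1B, which stabilizes the closed state of the ryanodine receptor, rose by 0.80 in SWOP (adjusted p = 0.00646) and by 1.40 in both RCO (adjusted p = 1.07e-05) and RCS (adjusted p = 6.32e-07). Its log2 mean was 6.78 ± 0.29 (SD, n = 5) on control arrays, and 7.59 ± 0.15 with SWOP, 8.19 ± 0.22 with RCO and 8.19 ± 0.17 with RCS. CAMK2D, the calcium-calmodulin kinase that phosphorylates many of these channels, fell by 0.55 in RCO (adjusted p = 0.00217) and by 0.75 in RCS (adjusted p = 9.42e-06). FXYD5, a sodium pump regulator, rose by 1.56 in RCS (adjusted p = 1.03e-05), and SRI, which encodes sorcin, a calcium-binding regulator of the ryanodine receptor, rose by 0.69 in RCO (adjusted p = 0.00369). In SWOP FKBP1A, a relative of FKBP1B, rose by 0.46 (adjusted p = 0.0270) and FXYD3 fell by 0.58 (adjusted p = 0.0122).

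Further members of that list, chosen after their values were seen, were those of the calcium release and exchange pathway in RCS. RYR2, the calcium release channel of the sarcoplasmic reticulum, fell by 1.22 (adjusted p = 6.87e-05), and SLC8A1, the sodium-calcium exchanger, by 1.17 (adjusted p = 2.75e-05). HRC, a histidine-rich calcium-binding protein of the sarcoplasmic reticulum, fell by 0.75 (adjusted p = 0.000232). CASQ2, which stores calcium there, averaged 12.20 ± 0.12 (SD, n = 5) on control arrays and 12.17 ± 0.17 in RCS and did not pass (adjusted p = 0.873). PLN, the inhibitor of ATP2A2, fell by 0.49 (adjusted p = 0.000612), and SLN, the related inhibitor best known from atrium and skeletal muscle, rose by 2.52 (SE 0.69, adjusted p = 0.00589). SLN is itself one of the 3 atrial and conduction markers.

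At the intercalated disc, where connexins sit, 8 of 15 listed genes were measured, of which 2 rose and 3 fell in RCS, against 28.8% and 25.7% of all genes, and 1 rose and 1 fell in RCO, against 11.3% and 4.26%. With so few genes nothing is read from these counts. In SWOP their median difference was 0.11. XIRP2, an actin-binding protein of the disc, rose by 2.19 in RCS (adjusted p = 7.93e-05) and by 1.12 in RCO (adjusted p = 0.0468). CXADR, an adhesion receptor, fell by 0.73 in RCS (adjusted p = 0.0126), CTNNB1 (beta-catenin) rose by 0.31 (adjusted p = 0.0043), and DSP (desmoplakin) fell by 0.59 in RCO (adjusted p = 0.0374). Among 9 measured genes of other ion transport, 4 rose, against 28.8% of all genes, and 4 fell, against 25.7%, in RCS. LRRC8A, the volume-regulated anion channel, fell by 0.47 in RCO (adjusted p = 0.0163) and by 0.98 in RCS (adjusted p = 5.77e-06). CLIC1 rose by 0.87 in RCO (adjusted p = 0.0107) and by 1.40 in RCS (adjusted p = 2.90e-05), and ORAI1, the pore of store-operated calcium entry, rose by 0.48 in SWOP (adjusted p = 0.0193) and by 0.64 in RCS (adjusted p = 0.000177).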

How the data were processed

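The 20 arrays were used as deposited: the authors' table holds log2 signals per probe set, and RMA and MAS5 are named per the submitters' processing notes, with no role or version given. The log base was inferred from the range, 3.22 to 15.18. After 124 control spots were left out, 23999 probe sets were fitted with limma 3.58.1 in R 4.3.3 as 4 group means on all 20 arrays (16 residual degrees of freedom), giving 6 comparisons with Benjamini-Hochberg adjustment over all probe sets. The number of arrays limits precision: the median SE of a difference was 0.111. Symbols came from the platform's gene table; 42 of 45 equalled the RefSeq symbol of their gene ID. The genes and lists were chosen with earlier results of these data known. Named were all members called in any comparison, members of the cardiac list, and up to 3 genes of each further list per comparison with control. The procedure was tested on simulated data. Replicate numbers were not taken to pair the pigs, because the labels name no shared source. With group means removed, 10 of 30 pairs of same-numbered arrays did correlate above 0.1, 4 of them between RCO and RCS. The RCO and RCS correlations were 0.369, 0.197, 0.44, 0.077 and 0.429 for replicates 1 to 5. Their source was not tested. Tables and figures used Python 3.11.15.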

Additional observations from a re-analysis of the deposited data

Results flagged for a closer look

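Of the 180 sets of 5 arrays formed by the 45 genes and 4 groups, 9 (5.0%) had an array whose gap to the nearest other array was large against the range of its group, and chance gives about 1 in 20. SWOP replicate 1 accounted for 3 of them: GJA1 at 12.36 (the others from 12.67 to 12.78), GJA4 at 8.42 (7.90 to 7.99) and CACNB4 at 6.82 (6.20 to 6.23). In RCO, replicate 5 stood apart for KCNH2 at 7.44 (6.81 to 6.88) and for ATP1B3 at 9.42 (10.20 to 10.48), replicate 1 for TRPC4AP at 8.86 (9.46 to 9.50) and replicate 2 for ATP1B1 at 11.74 (12.13 to 12.25). KCNN4 was 4.41 in RCS replicate 3 (4.79 to 4.87), and KCNIP4 was 4.04 in control replicate 2 (4.13 to 4.16).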

How the results depend on the processing

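No called difference changed sign under any alternative that was run. Of the calls against control, 26 of 31 in RCS, 1 of 6 in RCO (ATP1B3) and 0 of 8 in SWOP were kept under all of them. Members called in SWOP numbered 8, and 3 with quantile normalization, 5 with median centring, 4 with the probe sets of each gene averaged, 14 without RCO replicates 2 and 3, and 14 with only these groups fitted. In RCO they numbered 6, and 1 without RCO replicates 2 and 3 and 2 with only these groups fitted. Between RCO and SWOP they numbered 7, and 3 with quantile normalization (1 higher, 2 lower) and 2 with only these groups fitted. Between RCS and RCO they numbered 15, and 26 without RCO replicates 2 and 3 and 5 with only these groups fitted. With 1 array left out at a time the counts ran from 1 to 9 in SWOP, 2 to 11 in RCO, 29 to 33 in RCS, 2 to 7 between RCO and SWOP, 11 to 15 between RCS and SWOP and 9 to 24 between RCS and RCO. Replicate numbers were not taken to pair the arrays. With the replicate block the counts were 10 in SWOP, 6 in RCO, 32 in RCS, 6 between RCO and SWOP, 17 between RCS and SWOP and 16 between RCS and RCO. Each array correlated best with its own number in 21 of 60 cases, each a choice among the 5 arrays of another group. The counts over all genes moved as well. In RCO 767 were called higher and 288 lower, and 682 and 444 with quantile normalization. They were 377 and 118 without RCO replicates 2 and 3 and 202 and 71 with only these groups fitted. In SWOP they were 315 and 237, and 894 and 489 with only these groups fitted. Between RCS and RCO they were 793 and 670, and 1458 and 1441 without RCO replicates 2 and 3. Between RCO and SWOP they were 375 and 433, and 130 and 146 with only these groups fitted. Apart from the omitted arrays, the cause of these shifts was not tested. Differences of the dimmest probe sets are limited by background signal, which compresses them.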
